A study of Homo sapiens with 6 samples.

Results

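THE1 elements (transposon-like human elements) are primate-specific retroviral relics of the MaLR group, the mammalian apparent LTR retrotransposons. They were chosen here by repeat name: every locus whose name starts with THE1 was kept, which gave 4459 of the 433837 repeat loci in the deposited tables. Of these, 3090 were long terminal repeats (LTRs) under 4 names (THE1A, THE1B, THE1C and THE1D) and 1369 were internal parts under 5 names (THE1A-int, THE1B-int, THE1C-int, THE1D-int and THE1-int). No measured value entered the choice of names, although a locus is listed in the tables only if it has a read in at least 1 library.

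An intact element of this kind has an LTR at each end and an internal part between them. The LTRs carry the promoter and the polyadenylation signal, and recombination between the pair leaves a solitary LTR, a common form in the genome. MaLR elements have no envelope gene and are related to the ERVL retroviruses. Among the names, THE1A is regarded as the youngest subfamily and THE1D as the oldest, while MST and MLT1 are older families of the same group. LTRs of THE1B are known as alternative promoters of cellular genes, for example of CSF1R, a growth factor receptor gene, in Hodgkin lymphoma cells.

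The study sequenced RNA of HEK293T cells, a transformed line from human embryonic kidney that expresses the SV40 large T antigen, in 6 libraries. In 3 libraries the cells, labelled wild type, had received a control antisense oligonucleotide (ASO) directed against GFP, and in the other 3, labelled U7 snRNA knockdown, a chimeric ASO directed against U7 small nuclear RNA. Both ASOs were given at 100 nM by lipid transfection, and ribosomal RNA was depleted before library preparation. U7 RNA belongs to the small ribonucleoprotein that helps cut replication-dependent histone transcripts at their 3′ ends, and the series asks whether U7 also holds down HERV1/LTR12 repeats and lincRNAs. Each group's 3 libraries are biological replicates according to the design text, and all come from 1 cell line.

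The reads counted in repeat loci ranged from 1926892 to 2025985 per control library and from 2089822 to 2819540 per U7 ASO library, and these totals are not the sequencing depth. Copies of U7 itself (16 listed loci) drew 10, 6 and 12 reads in controls and 10, 4 and 6 after the U7 ASO, too few to check the labels. The tables list repeat loci, and no marker gene of the cell line was analysed here. LTR12 and HERV9 elements, the retroviral family named in the series title, had 2355 ± 173 CPM in summed reads in controls and 24558 ± 6058 CPM after the U7 ASO (reads per 1000000 reads in repeat loci after scaling between libraries, mean ± SD, n = 3 each), and some THE1 loci lie beside them.

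THE1 RNA was present at a low level in every library. The LTRs took 0.165%, 0.181% and 0.210% of the reads in repeat loci in control cells, against 0.181%, 0.228% and 0.236% after the U7 ASO. The widest of their 95% Clopper-Pearson intervals, that of control replicate 3, ran from 0.204% to 0.217% and covers counting error only. Internal parts took 0.150%, 0.147% and 0.193% in controls and 0.170%, 0.202% and 0.215% after the U7 ASO. For both parts the shares of U7 ASO replicate 1 lay within the range of the controls, and those of replicates 2 and 3 lay above it.

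The summed level of the THE1 LTRs was 1788, 1871 and 2008 CPM in controls and 1782, 2203 and 2365 CPM after the U7 ASO. The groups overlapped, since U7 ASO replicate 1 held the lowest value of all 6 libraries. The log2 ratio of the means was 0.16, from 1889 ± 111 to 2117 ± 301 CPM (mean ± SD, n = 3 each). The internal parts had 1624, 1523 and 1840 CPM in controls and 1674, 1953 and 2153 CPM after the U7 ASO, a log2 ratio of 0.21, and here too the groups overlapped. No test was made of these sums. When only loci with a read in both groups were summed, the log2 ratios turned to −0.21 for the LTRs (580 loci) and −0.044 for the internal parts (504 loci). In RNA from whole cultures, a change in the number of cells that express an element and a change in its RNA per cell cannot be told apart.

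None of the 9 THE1 names passed the test of U7 ASO against control ASO (edgeR quasi-likelihood test, Benjamini-Hochberg adjustment over the 2236 repeat names tested). At an unadjusted p under 0.05 the count was also 0, and DESeq2 and limma-voom called 0 THE1 names as well. Among all repeat names 1.52% were raised and 1.03% were lowered. The log2 fold change was above 0 for 8 of the 9 names, with a median of 0.23, beside a median of −0.01 over all tested names. Such a shift is not particular to THE1. Summed LTR reads had log2 ratios of means of 0.29 for MST, whose groups did not overlap, and 0.19 for MLT1, whose groups overlapped. The value for the THE1 LTRs was 0.16.

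**Figure D1:**
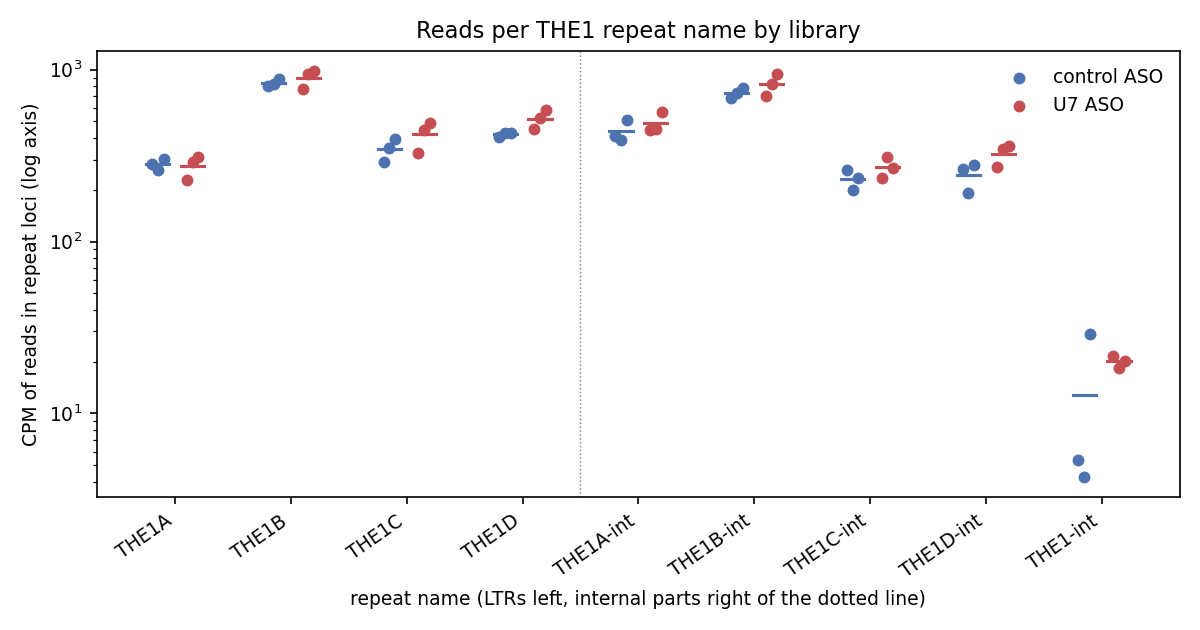
Level of each THE1 repeat name in each library, in CPM on a log axis, with control ASO in blue and U7 ASO in red (points are libraries, bars are means of 3). THE1D is the only name whose 3 U7 ASO points all lie above its 3 control points, and THE1-int is spread widely in the controls.

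Among the LTRs, THE1A, the youngest subfamily, had 281, 261 and 303 CPM in controls and 229, 291 and 311 CPM after the U7 ASO. Its groups overlapped and its log2 fold change was −0.02 (95% interval −0.45 to 0.40, adjusted p = 0.976, edgeR), with a sign that turned under some alternatives. THE1B, with the most listed loci (1311), had 809, 831 and 878 CPM in controls and 777, 943 and 983 CPM after the U7 ASO. U7 ASO replicate 1 again lay below all controls, and the log2 fold change was 0.10 (95% interval −0.26 to 0.46, adjusted p = 0.850, edgeR).

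THE1C had 290, 351 and 395 CPM in controls and 327, 446 and 490 CPM after the U7 ASO, a log2 fold change of 0.28 (95% interval −0.15 to 0.72, adjusted p = 0.580, edgeR). THE1D, the oldest LTR subfamily, had 407, 428 and 431 CPM in controls and 449, 524 and 581 CPM after the U7 ASO. It was the only one of the 9 names whose groups did not overlap, beside 9.93% of all tested names that were higher in every U7 ASO library and 10.2% that were lower in every one. Its log2 fold change of 0.30 did not pass (SE 0.19, 95% interval −0.09 to 0.68, adjusted p = 0.501, edgeR).

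None of the internal parts passed the test. THE1A-int had 412, 391 and 511 CPM in controls and 446, 450 and 566 CPM after the U7 ASO, and THE1B-int had 684, 735 and 786 CPM and 701, 830 and 940 CPM. Both pairs of groups overlapped, at log2 fold changes of 0.15 and 0.16 (adjusted p = 0.775 and 0.753, edgeR). THE1C-int had 260, 200 and 233 CPM in controls and 236, 310 and 268 CPM after the U7 ASO (log2 fold change 0.23, adjusted p = 0.698, edgeR). THE1D-int had 263, 193 and 280 CPM and then 270, 345 and 358 CPM. Its log2 fold change of 0.40 came with the lowest adjusted p of the 9 names, 0.416 (95% interval −0.05 to 0.85, edgeR).

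The estimate for the rare name THE1-int, with 12 listed loci, depended most on 1 library. The name held 10, 8 and 60 reads in controls and 46, 45 and 57 reads after the U7 ASO. After scaling, control replicate 3, at 28.9 CPM, was the highest of the 6 libraries, and the other controls were the lowest. A single locus, THE1-int_dup5_2218922, held 48.7% of the reads of this name, with 0, 6 and 38 reads in controls and 8, 22 and 36 after the U7 ASO. The log2 fold change was 0.63 (adjusted p = 0.727, edgeR), and 2.05 without control replicate 3 (adjusted p = 0.0968).

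**Figure D2:**
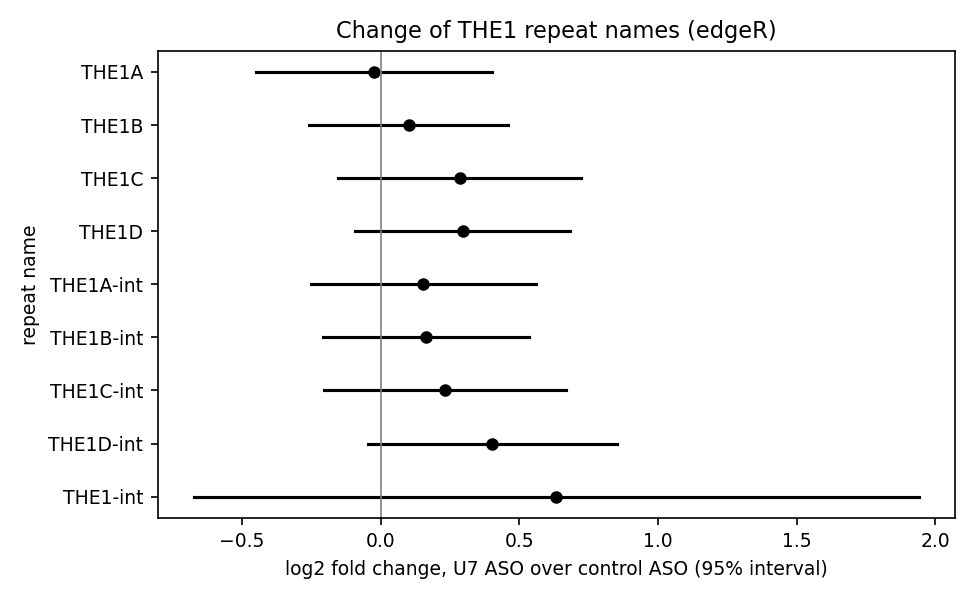
Log2 fold change of each THE1 repeat name, U7 ASO over control ASO, with its 95% interval from edgeR. All 9 intervals include 0, and THE1-int has the widest, from −0.67 to 1.94.

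Within the THE1 LTR reads, the shares of THE1A and THE1B were lower in every U7 ASO library than in any control, and that of THE1D was higher. THE1A supplied 14.0% to 15.7% in controls and 12.9% to 13.2% after the U7 ASO, and THE1B 43.7% to 45.3% and 41.6% to 43.6%. THE1D supplied 21.5% to 22.9% in controls and 23.8% to 25.2% after the U7 ASO, while the ranges of THE1C overlapped (16.2% to 19.7% and 18.3% to 20.7%). Without the THE1 loci called raised below, the share of THE1D with the U7 ASO was 21.8% to 22.6% and that of THE1B 42.3% to 44.6%, and both overlapped the controls. That of THE1A was then 13.5% to 13.7%, still below the controls. The loci left out were picked because they rose in these libraries, which by itself moves these shares toward the controls. These are shares of 1 total, so they are not independent of each other. They were not tested, and read counts were not set against element lengths, which the tables do not give.

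LTR reads were set against internal reads within each library. The log2 ratio of THE1 LTR to internal reads was 0.19 ± 0.10 in controls and 0.13 ± 0.04 after the U7 ASO (n = 3 each, exact two-sided permutation p = 0.5). THE1 LTRs were also set against the LTRs of the related families. The log2 ratio to MST LTR reads was −0.56 ± 0.05 in controls and −0.69 ± 0.19 after the U7 ASO (n = 3 each, exact permutation p = 0.4). The ratio to MLT1 LTR reads was −2.54 ± 0.02 and −2.58 ± 0.11 (n = 3 each, exact permutation p = 0.9). Adjusted over these 3 ratios the permutation p-values were 0.75, 0.75 and 0.9, and 3 libraries against 3 cannot give an exact p below 0.1. The 2 groups overlapped in each ratio. In U7 ASO replicate 1 the ratio to MST (−0.90) and the ratio to MLT1 (−2.70) were the lowest of the 6 libraries.

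THE1 reads were spread thinly over many loci. The median listed locus had 6 reads over all 6 libraries, 75.4% had at most 10, and 40 loci had 100 or more. A read was found at 896, 1129 and 1027 THE1 loci in controls and at 1134, 1519 and 1593 after the U7 ASO. Brought by calculation to the 1926892 reads of the smallest library, the expected numbers were 891, 1129 and 1025 in controls and 1125, 1489 and 1521 after the U7 ASO. Over all repeat loci, 95976 to 120658 loci were expected at equal reads in controls, and 117099 to 156595 after the U7 ASO. THE1 loci made up 0.927% to 0.942% of the loci with a read in controls and 0.945% to 1.01% after the U7 ASO. Over the whole set, 1222 loci had reads in control libraries only, 2153 in U7 ASO libraries only and 77 in all 6 libraries. These last counts were not brought to equal reads, while every U7 ASO library held more reads in repeat loci than any control. The same counts over all repeat loci are not given here.

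Single THE1 loci rose at 6 places and fell at none that passed the test. The count filter left 103 of the 4459 loci (31 LTRs and 72 internal parts), and the test called 6 of these raised and 0 lowered, which leaves 97 uncalled (edgeR quasi-likelihood test, adjusted over 14380 loci). The share raised, 5.83%, is near the 4.49% of all tested loci that were raised, and 0.473% of all tested loci were lowered. Among the 13917 tested loci outside LTR12 and HERV9, 2.28% were raised. The share of THE1 is above this, and the difference was not tested. At an unadjusted p under 0.05, 11 THE1 loci were higher and 1 was lower. DESeq2 called 8 raised and 0 lowered, limma-voom 3 raised and 0 lowered, and without U7 ASO replicate 1 there were 3 raised. The median log2 fold change of the tested loci was 0.25 for LTRs and 0.37 for internal parts, beside 0.06 over all tested loci. Of the 103 loci, 10 had no control library at the minimum of the count filter and passed only through the U7 ASO libraries, 5 of them with 0 control reads, and all 6 raised loci are among the 10. No tested locus passed only through the controls, so these counts and medians describe the tested loci and not the family. The groups did not overlap at 11 loci that were higher with the U7 ASO (10.7%, beside 12.2% of all tested loci) and at 2 that were lower (1.94%, beside 8.36%).

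**Figure D3:**
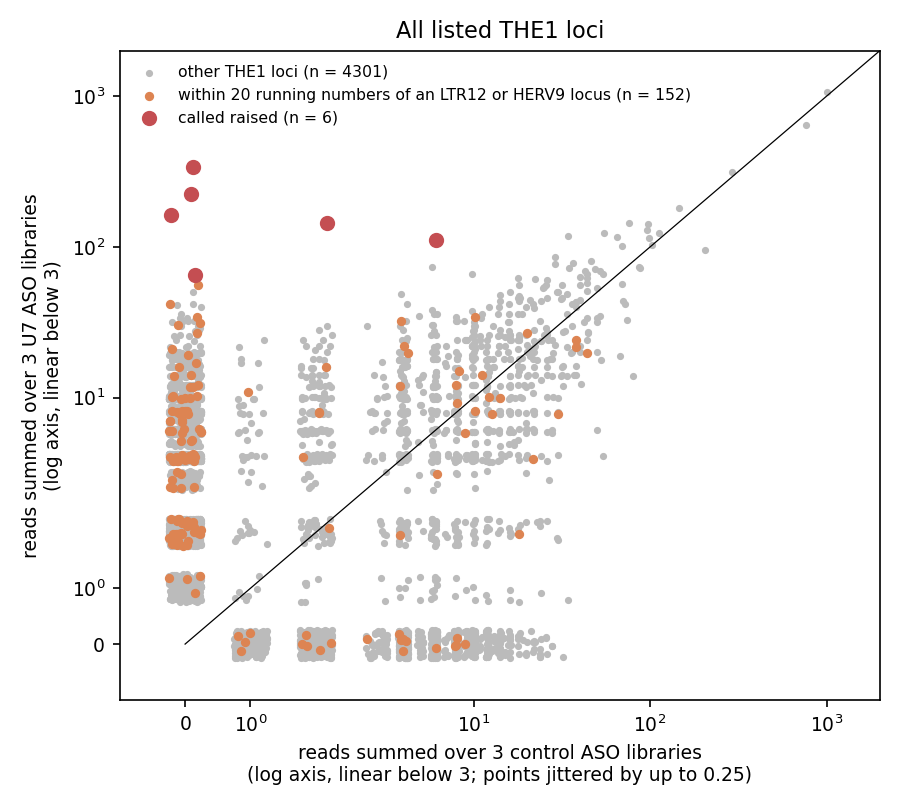
Each of the 4459 listed THE1 loci by its reads summed over the 3 control libraries (x axis) and the 3 U7 ASO libraries (y axis), on log axes that are linear below 3, with the line of equal reads and no correction for library totals. The 6 loci called raised are red and stand at 6 or fewer control reads, and loci within 20 running numbers of an LTR12 or HERV9 locus are orange.

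The raised locus with the most reads was THE1D_dup730_411187, an LTR. It held 0, 0 and 0 reads in controls and 88, 116 and 135 reads after the U7 ASO. With the control group set to 3 reads as a floor, this is at least 104-fold higher (adjusted p = 2.75e-05, edgeR). THE1D_dup467_3455043, also an LTR, held no control reads and 54, 36 and 74 reads with the U7 ASO, at least 50.1-fold higher (adjusted p = 0.000463, edgeR). Without these 2 loci the name THE1D had 383, 461 and 506 CPM after the U7 ASO, beside 407, 428 and 431 CPM in controls, and the groups overlapped. The 2 loci, which were picked because they rose, held 70.8% of the difference between the mean levels of THE1D. For THE1B and THE1B-int, which also had 2 raised loci each, this share was 37.4% and 55.7%.

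The other raised LTR loci were of THE1B. THE1B_dup203_1252864 held 0, 0 and 0 control reads and 12, 23 and 30 reads with the U7 ASO, at least 19.9-fold higher (adjusted p = 0.0273, edgeR). THE1B_dup196_5039358 was the raised locus with most control reads, at 5, 1 and 0, and held 35, 41 and 36 with the U7 ASO (log2 fold change 4.02, SE 0.98, adjusted p = 0.0255, edgeR). These calls are the least secure of the 6. That of THE1B_dup203_1252864 was lost in 9 of 15 alternatives, among them leaving out any 1 of the 6 libraries (adjusted p up to 0.303, edgeR). That of THE1B_dup196_5039358 was lost in 7 of 15 alternatives, among them leaving out control replicate 2 or 3 or any 1 of the U7 ASO replicates (adjusted p up to 0.223).

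Both raised internal loci were of THE1B-int. THE1B-int_dup21_1901266 held no control reads and 68, 38 and 118 reads with the U7 ASO, at least 68.5-fold higher (adjusted p = 0.000233, edgeR). THE1B-int_dup18_4697171 held 0, 2 and 0 reads in controls and 48, 54 and 42 after the U7 ASO. The ratio of its summed reads was 66.0 (exact 95% interval 17.9 to 550, counting error only, adjusted p = 0.00186 in edgeR). Its call was lost without U7 ASO replicate 1 (adjusted p = 0.0554) and with limma-voom (adjusted p = 0.0537). The calls of THE1D_dup730_411187, THE1D_dup467_3455043 and THE1B-int_dup21_1901266 held in all 15 alternatives.

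**Figure D4:**
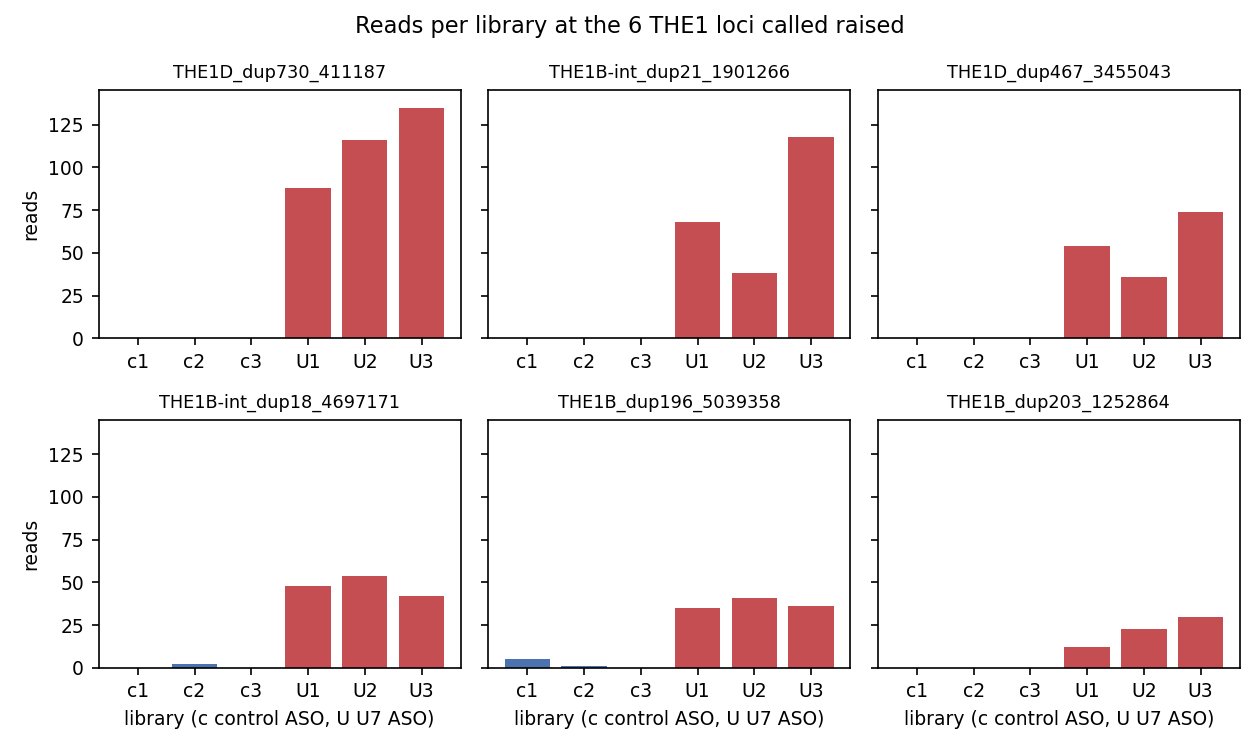
Reads per library at the 6 THE1 loci called raised, with control ASO libraries in blue (c1 to c3) and U7 ASO libraries in red (U1 to U3). In each panel all 3 U7 ASO bars stand above all 3 control bars, and the control bars do not exceed 5 reads.

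Of the 6 raised loci, 3 lie beside an LTR12C locus, a subfamily of the HERV9 LTRs. Such a share is not particular to THE1: 160 of the 317 raised loci outside LTR12 and HERV9 (50.5%) lay within 20 running numbers of a listed locus of that family. Position was read from the running number that ends each locus identifier, since the tables give no coordinates. Copy numbers rose with the running number at 96.0% of successive loci of a THE1 name, but running numbers are not distances in bases. THE1D_dup467_3455043 is followed at the next running number by LTR12C_dup104_3455044, which held 0 control reads and 68, 62 and 38 reads with the U7 ASO and was itself raised (adjusted p = 0.000430, edgeR). THE1D_dup730_411187 lies 4 running numbers from LTR12C_dup168_411191, also raised, with 0 control reads and 118, 60 and 157 reads with the U7 ASO. Between them THE1D-int_dup113_411188, named after its values were seen, held 0 control reads and 12, 14 and 30 reads with the U7 ASO, and missed the threshold (adjusted p = 0.0573 in edgeR, 0.00243 in DESeq2). THE1B_dup203_1252864 lies 2 running numbers from LTR12C_dup24_1252866, which held 0 control reads and 27, 8 and 63 reads with the U7 ASO and was not tested.

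**Figure D5:**
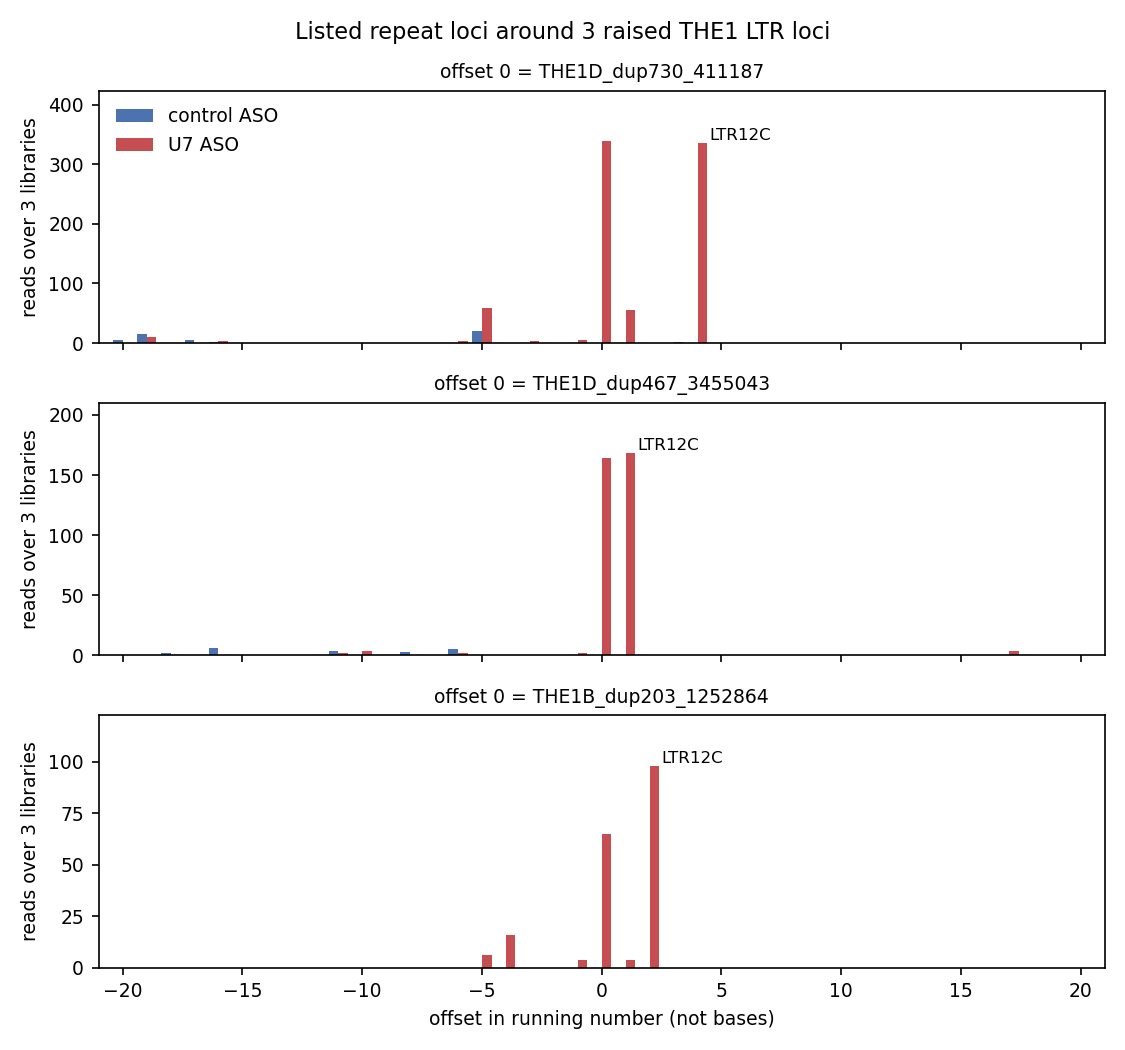
Reads summed over 3 libraries of each group at every listed repeat locus within 20 running numbers of 3 raised THE1 LTR loci (offset 0), with LTR12C loci marked. In each panel the U7 ASO reads stand mainly at the THE1 locus and at an LTR12C locus 1 to 4 running numbers away, and both hold 0 control reads.

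The other 3 raised loci had no LTR12 or HERV9 locus listed within 20 running numbers. THE1B-int_dup21_1901266 had 3 raised neighbours of other families in that window, L1MC4_dup234_1901249, L1MEg1_dup5_1901254 and L1HS_dup11_1901285, whose controls held at most 2 reads. THE1B-int_dup18_4697171 also had 3, AluSz6_dup1132_4697161, (TTC)n_dup19_4697162 and L2_dup812_4697164. These held reads in the controls as well, for example 16, 6 and 10 at the L2 locus against 85, 39 and 129 with the U7 ASO. THE1B_dup196_5039358 had 0 raised neighbours among 13 listed. Whether a THE1 locus and its neighbours were read from 1 transcript was not tested.

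Over all listed loci, 155 THE1 loci (3.48%) lay within 20 running numbers of a listed LTR12 or HERV9 locus, beside 2.40% of all loci outside that family. Reads at these 155 loci were 161, 150 and 115 in controls and 356, 455 and 857 after the U7 ASO, a ratio of mean CPM of 2.97. The 99 LTR loci among them held 51, 52 and 43 reads in controls and 256, 270 and 505 after the U7 ASO, a ratio of 5.41, and their groups did not overlap. The 56 internal loci held 110, 98 and 72 reads and then 100, 185 and 352, a ratio of 1.70, and their groups overlapped. Within 5 running numbers there were 46 THE1 loci, with 8, 16 and 8 control reads and 213, 261 and 465 reads with the U7 ASO, a ratio of 22.3. In this window the groups of both parts were apart, with ratios of 24.4 over 30 LTR loci and 17.5 over 16 internal loci. The internal ratio rests on few reads, 4, 2 and 4 in controls and 32, 54 and 148 with the U7 ASO. Within 50 running numbers the ratio was 2.14 over 302 loci, made up of 3.05 for the LTRs and 1.41 for the internal parts, whose groups overlapped.

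All 3 windows hold the same 3 raised LTR loci. Without them the ratios were 8.58, 1.94 and 1.65 within 5, 20 and 50 running numbers, and for the LTRs alone 4.63, 2.39 and 1.95. Loci of other repeats in these windows had ratios of 4.13, 2.31 and 1.56, and of 2.47, 1.68 and 1.29 without their own raised loci. Whether THE1 loci differ from these was not tested, and the loci themselves are listed partly because the U7 ASO libraries gave them reads. Leaving out loci that were picked because they rose lowers each ratio by construction.

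The 4304 THE1 loci outside the window of 20 had 3477 ± 273 CPM in controls and 3823 ± 479 CPM after the U7 ASO (SD, n = 3 each), a ratio of 1.10, and the groups overlapped. The summed reads of other repeat loci outside the window had a ratio of 0.927, also with overlapping groups, and the difference from THE1 was not tested. Among the LTRs alone the log2 ratio was 0.16 over all loci, 0.09 outside the window and 0.10 without the 4 raised LTR loci. For internal parts it was 0.21, 0.19 and 0.18. Raised loci were picked because they rose, so leaving them out lowers the ratio by construction.

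Apart from THE1D_dup730_411187 and THE1B-int_dup21_1901266, the THE1 loci with the most reads did not pass the test. THE1A-int_dup26_530841, with more reads than any other THE1 locus, held 327, 247 and 428 reads in controls and 345, 287 and 432 after the U7 ASO (log2 fold change −0.04, 95% interval −0.65 to 0.57, adjusted p = 0.986, edgeR). It made up 33.4% of all reads of its name. The groups overlapped, and the sign of so small a change turned with the setting.

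This locus stands between 2 THE1A LTRs at consecutive running numbers, the order of an element with both ends. THE1A_dup97_530840, the LTR before it, held 59, 48 and 97 reads in controls and 14, 31 and 51 after the U7 ASO. These libraries overlap in reads, but after scaling every U7 ASO value lay below every control value, and the log2 fold change of −1.23 did not pass (SE 0.50, adjusted p = 0.295, edgeR). THE1A_dup98_530842, the LTR after it, held 36, 19 and 10 reads and then 42, 27 and 48 (log2 fold change 0.71, adjusted p = 0.815, edgeR). The 3 loci of this run thus had point estimates of different sign, none of which passed.

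Such a run of an LTR, internal loci and an LTR, with gaps of at most 2 running numbers, was found 69 times among 3890 groups of neighbouring THE1 loci, and 3441 of these groups held a single locus. Their 138 LTR loci had 351, 355 and 348 reads in controls and 319, 352 and 519 after the U7 ASO, and their 81 internal loci had 812, 657 and 987 and then 760, 1015 and 1123. As library totals were higher with the U7 ASO, these reads show no clear separation of the groups. Only listed loci could be joined in this way, so an element with an unread LTR was not counted.

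Among the other loci with the most reads, THE1B_dup432_4768587 held 239, 252 and 273 reads in controls and 209, 198 and 238 after the U7 ASO. All 3 U7 ASO libraries were lower, and the log2 fold change of −0.37 did not pass (95% interval −0.95 to 0.21, adjusted p = 0.740, edgeR). THE1C_dup7_4121820 held 82, 89 and 120 and then 67, 89 and 158 reads, and THE1B_dup299_2738896 held 46, 64 and 36 and then 72, 62 and 48. Their groups overlapped, as did those of THE1A_dup42_4567630, with 55, 36 and 22 and then 36, 42 and 46 reads.

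Of the internal loci, THE1C-int_dup1_4119956 held 52, 26 and 20 reads in controls and 28, 52 and 62 after the U7 ASO. THE1D-int_dup90_5234964 held 36, 24 and 36 and then 16, 89 and 24, so a single U7 ASO library lay above the rest. The adjusted p-values of these 8 loci ran from 0.295 to 1.00 in edgeR, and none of them had a raised locus or an LTR12 or HERV9 locus listed within 20 running numbers. Together the 10 most-read loci of each library accounted for 13.8% to 15.9% of THE1 reads in controls, against 10.6% to 14.0% after the U7 ASO.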

How the data were processed

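The deposited files hold, for each library, the authors' unnormalized read count at every listed repeat locus. The submitters' processing notes name GRCh38, STAR 2.5.3a, FastQC 0.11.5 and, from Subread, featureCounts 1.5.0-p1. Not given in the sources used here are the repeat annotation, the strand setting and how multiply mapping reads and read pairs were treated. Reads of near-identical copies may have been split, dropped or moved, and reads of a repeat and of a transcript crossing it, on either strand, cannot be told apart. Of the THE1 counts above 0, 84.1% were even, so counts are described as reads, not fragments. The exact and Clopper-Pearson intervals take each read as independent. If mates of a pair were counted separately, these intervals are too narrow even for counting error. The tables hold no coordinates or sequences, so none are given.

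Counts of all loci, and counts summed by repeat name, were tested with edgeR 4.0.16 (quasi-likelihood, TMM scaling, filterByExpr with a minimum count of 10 and minimum total of 15) under R 4.3.3. A feature was called at a Benjamini-Hochberg adjusted p under 0.05. CPM values of names and sums use the scaling of repeat names. Within-library ratios were compared by exact permutation (scipy 1.17.1). DESeq2 1.42.0, limma 3.58.1 (voom), other scalings and filters, the replicate block and leaving out each library were alternatives. In simulated data, 88% of repeat names changed by a log2 fold of 2 and 52% of those changed by 1 were recovered (2115 names). For single loci these shares were 23.4% and 1.11% (11240 loci). Changed features were not drawn from those with the lowest levels, and recovery was counted only among features that passed the filter again. The shares thus do not hold for every tested feature. False calls numbered 10 among names and 1 among loci.

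Named loci were every THE1 locus called, and the 6 LTR and 4 internal loci with the most reads. THE1-int_dup5_2218922, THE1A_dup98_530842, THE1D-int_dup113_411188 and LTR12C_dup24_1252866 were named after their values were seen. The members and lists were chosen with earlier results of these data known. P-values measure the spread between these libraries of 1 cell line. A fold against 0 control reads uses 3 reads over the group. This floor was set by choice, so "at least" refers to the floor and is not a confidence limit.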

Additional observations from a re-analysis of the deposited data

How the results depend on the processing

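No THE1 name was called under any of the 15 alternatives. The number of raised THE1 loci was 6 under each other scaling, with a minimum count of 5 and without LTR12 and HERV9 loci, 8 with DESeq2, 4 without a filter and 3 with limma-voom. It ranged from 3 to 5 when 1 library was left out, lowest without U7 ASO replicate 1. Upper-quartile scaling moved the median log2 fold change of all tested loci by −0.15 and no THE1 call. Summing only loci with a read in both groups gave log2 ratios of −0.21 for LTRs and −0.044 for internal parts, and this choice by construction removes loci read in 1 group.

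Deviations of libraries with the same replicate number in the titles correlated at 0.114, −0.0304 and 0.119 over repeat names. Correlations of libraries with different numbers ran from −0.153 to 0.0563. These values do not settle whether the numbers pair the libraries. With the replicate block 5 THE1 loci were raised, and THE1B_dup203_1252864 lost its call (log2 fold change 7.34, adjusted p = 0.111 in edgeR).

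Log2 fold changes of 6 uncalled names and loci changed sign, as did the 2 sums above and 2 of the within-library ratios. The difference in the LTR-to-internal ratio, at −0.054, became 0.00086 without control replicate 2. That in the LTR-to-MLT1 ratio, at −0.031, became 0.0039 without the most-read loci and 0.031 without U7 ASO replicate 1. THE1A was 0.027 with library totals only and ranged from −0.10 to 0.10 with 1 library left out. THE1A_dup42_4567630, at −0.00062, became 0.029 with DESeq2 size factors and with DESeq2, 0.11 with limma-voom, 0.090 with the replicate block and 0.0082 without LTR12 and HERV9 loci. THE1D-int_dup90_5234964, at 0.33, became −0.092 with limma-voom and −0.082 with the replicate block. With 1 library left out, THE1A_dup42_4567630 ranged from −0.33 to 0.36, THE1D-int_dup90_5234964 from −0.81 to 0.72, THE1C_dup7_4121820 from −0.33 to 0.17, THE1B_dup299_2738896 from −0.038 to 0.50 and THE1A-int_dup26_530841 from −0.17 to 0.11. The cause was not tested. Depth limits single loci: 97.7% of listed THE1 loci had too few reads to be tested.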
